A study of Mus musculus with 12 samples.

Results

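The MHC class II genes and their transactivator, 10 genes in all, were followed in mouse antibody-secreting cells (ASCs), that is, plasmablasts and plasma cells. They were the chains H2-Aa, H2-Ab1 and H2-Eb1, the invariant chain Cd74, the peptide editors H2-DMa, H2-DMb1, H2-DMb2, H2-Oa and H2-Ob, and the transactivator Ciita. These 10 symbols were taken by name from the 32285 genes of the matrices, and all 10 were present. The cells were the barcodes with at least 1000 UMIs (unique molecular identifiers, 1 per captured RNA molecule) outside genes whose names start with Igh, Igk or Igl, whose leading light-chain V gene also held at least 50% of the UMIs of all light-chain V genes. That rule kept 8715 of the 39949 barcodes that the authors' filtered lists hold. The rule used no class II value.

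Each library came from ASCs pooled from 3 mice of 3 months of age on the C57BL/6 background, and all mice carried a yellow fluorescent reporter of Prdm1, the transcription factor that drives ASC differentiation. Sorted cells carried the reporter and high CD138, lacked CD90.2 and IgD, and were taken whether or not they had B220. Sex (female or male) and tissue (bone marrow, spleen or thymus) made up the 6 groups, with 1 library of 10x Genomics 5' v1.1 chemistry each. No treatment was given, none of the 6 groups has a second library, and whether 1 pool of mice supplied all tissues of a sex is not given in the sources used here.

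MHC class II molecules are pairs of an alpha and a beta chain that show peptides from endosomes to CD4 T cells. Cd74 holds newly made pairs and blocks their groove, H2-DM loads the peptides, and H2-O restrains H2-DM. Ciita is recruited to the X and Y boxes of class II promoters and is needed for their transcription; in the textbook account Prdm1 (Blimp-1) shuts Ciita off as a B cell becomes a plasma cell. C57BL/6 mice carry a deletion in H2-Ea, the partner of H2-Eb1, and so make the pair of H2-Aa and H2-Ab1 but no surface protein from H2-Eb1; H2-Ea was not analysed here.

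The genes H2-Oa, H2-DMa, H2-DMb2, H2-DMb1, H2-Ob, H2-Ab1, H2-Aa and H2-Eb1, 8 of the 10, lie within 224.3 kb of chromosome 17 in the GENCODE vM21 annotation of GRCm38, the build named in the submitters' processing notes. H2-Oa opens the cluster at chr17:34092340-34095234 and H2-Eb1 closes it at chr17:34305867-34316674. Between them lie H2-DMa at chr17:34119541-34139101, H2-DMb2 at chr17:34143307-34151555, H2-DMb1 at chr17:34153072-34160230, H2-Ob at chr17:34238903-34254414, H2-Ab1 at chr17:34257689-34269419 and H2-Aa at chr17:34282744-34287823, the last on the minus strand. Ciita lies at chr16:10480059-10528418. H2-DMb1 and H2-DMb2 are near copies: their transcripts were identical at 94.4% of 1255 aligned bases, so reads could have been split or lost between them, and the values of both are uncertain. H2-Eb1, H2-Oa, H2-DMa and Ciita overlap genes on the other strand and H2-DMa also CR974462.3 on its own. Whether the counting used strand is not given in the sources used here.

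The promoters are shown because these genes share a promoter layout that Ciita works through, and the data below ask whether the genes move together. RefSeq promoters of GRCm38.p6 (300 bases, from 250 before to 50 after the start of transcription) were found for 7 of the 10 genes. Each line gives 120 bases upstream of the start (base 150 to base 31 before it), 5′ to 3′ on the gene's strand. Capitals mark the Y box TGATTGG, the NF-Y site, and an X box pattern (AAC, any 2 bases, then ATGATG), which was chosen after looking at these promoters.
H2-Eb1, chr17:34305717-34305836, plus strand: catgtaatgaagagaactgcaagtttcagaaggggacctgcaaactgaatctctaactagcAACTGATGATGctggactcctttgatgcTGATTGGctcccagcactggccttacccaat
H2-Ob, chr17:34238755-34238874, plus strand: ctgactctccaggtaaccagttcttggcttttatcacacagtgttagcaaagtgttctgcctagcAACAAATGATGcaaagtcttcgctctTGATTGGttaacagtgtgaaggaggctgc
H2-DMb2, chr17:34145099-34145218, plus strand: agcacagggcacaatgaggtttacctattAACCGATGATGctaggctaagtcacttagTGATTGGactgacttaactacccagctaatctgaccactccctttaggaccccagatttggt
H2-Aa, chr17:34287854-34287973, minus strand: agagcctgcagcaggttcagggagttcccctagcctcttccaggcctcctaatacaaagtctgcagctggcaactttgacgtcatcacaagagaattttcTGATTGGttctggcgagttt

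On both strands of the 300-base windows, the Y box letters were found in 6 of the 7 genes, and in 7.82% of 32851 RefSeq promoters. The X box pattern was found in H2-Eb1, H2-Ob, H2-DMb1 and H2-DMb2, and in 0.137% of all promoters. The 2 motifs share no base in these 4 genes. H2-Eb1 and H2-Ob carry the X box pattern at bases 89 and 85 before the start and the Y box at bases 61 and 59. The window of H2-Aa and that of H2-Oa hold the Y box letters only, and those of H2-DMa hold neither. A match is a description of letters.

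The rule kept 1238, 3567 and 107 barcodes of female marrow, spleen and thymus, and 1665, 1850 and 288 of the male tissues. Their UMIs outside immunoglobulin genes summed to 264621 in female thymus, the shallowest library, and to 21287170 in female spleen, the deepest. Up to 11 barcodes were shared between any pair of libraries. All 10 ASC markers examined, among them Prdm1, Xbp1 and Sdc1, were detected in every library, with summed levels of 59153 to 110483 CPM (UMI counts scaled to one common total, with Igh, Igk and Igl genes left out). The 15 B cell markers summed to 2343 to 3202 CPM. Pax5, Cr2 and Fcer2a were at 0 in both thymus libraries, but reached at most 1.39, 3.28 and 0.987 CPM in any library. At the depth of the thymus libraries these zeros cannot be read as absence. Ms4a1, another of these markers, was lowest in female thymus (34.0 CPM) and highest in male thymus (96.7 CPM). Neutrophil markers stood at 549 CPM in female and 1363 CPM in male marrow, and at 0 to 0.141 CPM elsewhere. Doublets were not removed. Levels are shares of RNA, so less RNA per cell and fewer cells that hold a transcript cannot be told apart in summed counts.

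Class II chain RNA was found in every library. H2-Aa, the alpha chain, stood at 477 (bone marrow), 603 (spleen) and 1164 CPM (thymus) in female mice, and at 429.7, 384 and 649 CPM in the matching male libraries. H2-Ab1, its beta chain, stood at 741, 1006 and 1716 CPM in the female and at 703, 905 and 893 CPM in the male tissues. H2-Eb1 stood at 547, 665 and 1039 CPM in female and at 513, 564 and 784 CPM in male mice. Female thymus was the highest library for all 3 chains. Male thymus came next for H2-Aa and H2-Eb1, and female spleen for H2-Ab1. A single IgG barcode of female thymus held 94 of its 308 H2-Aa UMIs, or 30.5%; without it the library stood at 834 CPM. In male thymus the leading barcode held 131 of the 772 H2-Aa UMIs; without it that library stood at 544 CPM, below female spleen. In the other 4 libraries the leading barcode held 1.27% to 3.57%.

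Cd74, which is both the chaperone of class II and a surface receptor for the cytokine Mif, varied least. Its levels were 12809.7 (bone marrow), 13572 (spleen) and 14474 CPM (thymus) in female mice, and 14364, 11791 and 13002 CPM in male mice. The lowest and highest libraries thus lay closer to each other than those of any chain. H2-DMa, the alpha chain of the editor, ranged from 59.0 CPM in male bone marrow to 106 CPM in female thymus. H2-DMb1 ranged from 34.1 to 75.6 CPM, H2-DMb2 from 9.97 to 34.0 CPM, and H2-Ob, the beta chain of the H2-O inhibitor, from 46.9 to 102 CPM, each highest in female thymus. H2-Oa, the partner of H2-Ob, had 77 UMIs in all 6 libraries together and none in male thymus.

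Ciita was near the limit of detection. Its UMIs numbered 4 in marrow, 20 in spleen and 2 in thymus of female mice, and 9, 4 and 1 in those of male mice, 40 in all. That is 0.505 to 0.969 CPM in 5 libraries and 7.56 CPM in female thymus, where the level rests on 2 UMIs. Each barcode was also thinned at random to 1000 UMIs. A Ciita UMI was then left in 0 of 1665 barcodes of male bone marrow and in 1 of 3567 of female spleen. At that depth the 0 allows a share of barcodes with a UMI of up to 0.180%, taken as 3 counts over 1665 barcodes and not as an exact interval. Without thinning, 0.216% to 1.87% of barcodes held one.

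Empty droplets were taken as a guide to free RNA. Barcodes outside the filtered lists with at most 100 UMIs were summed for each library, and the rule's barcodes were set against them. Prdm1 and Xbp1, which ASCs make, stood at 167% to 262% and 168% to 203% of their level in empty droplets, and the B cell gene Ms4a1 at 13.2% to 18.8%. Ciita stood at 2.08% to 61.7% of the level in empty droplets, the highest being female thymus with its 2 UMIs. H2-Oa stood at 0 to 6.29% outside female thymus and H2-DMb2 at 11.1% to 23.0%. Outside female thymus the chains lay below empty droplets, with H2-Aa at 39.7% to 59.8%; in female thymus H2-Aa stood at 113%, H2-Ab1 at 155% and H2-Eb1 at 112%. Cd74 was above the empty droplets in 5 libraries, at 113% to 122%, and at 95.5% in male thymus. H2-DMb1 was above them in all 6, at 103% to 153%. For Ciita, H2-Oa and H2-DMb2 the level in the rule's barcodes was thus below that in empty droplets in all 6 libraries. Empty droplets also held RNA of the other sex. In male libraries they held Xist, which female cells make, at 223 (bone marrow), 194 (spleen) and 235 CPM (thymus). In female libraries they held the Y-linked gene Ddx3y at 23.1, 13.9 and 5.48 CPM. The rule's barcodes stood at 0.289% to 0.716% of those Xist levels and at 0 to 0.339% of those Ddx3y levels. The source of this RNA and the share of any gene's UMIs that came from free RNA were not tested.

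**Figure D1:**
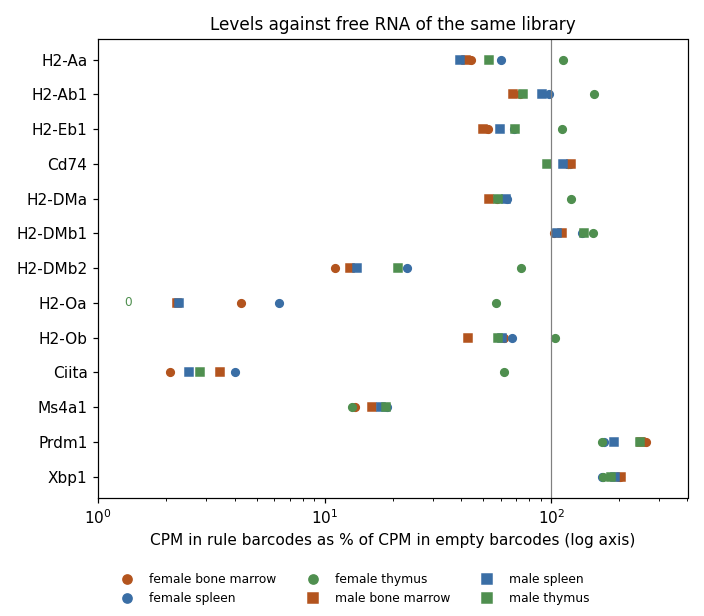
Level of each gene in the rule's barcodes as a percentage of its level in empty droplets of the same library (log axis), with 1 point per library; the grey line is 100% and a 0 marks male thymus for H2-Oa. Ciita, H2-Oa and H2-DMb2 lie left of the line in every library, the chains lie left of it except in female thymus, and Prdm1 and Xbp1 right of it.

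At a fixed depth of 1000 UMIs, most ASC barcodes still held a chain UMI. A UMI of H2-Aa, H2-Ab1 or H2-Eb1 was present in 55.0% (bone marrow), 69.9% (spleen) and 77.6% (thymus) of female barcodes, and in 56.0%, 65.2% and 56.6% of male ones. The exact 95% binomial interval, a measure of counting error alone, ran from 52.2% to 57.8% in female bone marrow and from 68.4% to 71.4% in female spleen. Both spleen shares were above both bone marrow shares. Without thinning the 6 shares were 77.1% to 94.6%. A Cd74 UMI was present in 97.6% to 99.9% of thinned barcodes. No cell type that should lack class II was called here, so these shares were not set against one. Free RNA can give such UMIs, and how many of them came from it was not tested.

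The tissue comparison asks how thymic, splenic and marrow ASCs differ. It was fitted in edgeR's quasi-likelihood test over the 6 summed libraries with sex and tissue as additive terms and Benjamini-Hochberg adjustment over 11239 genes. None of the 9 genes tested passed an adjusted p of 0.05 for thymus against bone marrow, where 0.765% of all genes did, for thymus against spleen (0.632% of all genes) or for spleen against bone marrow (0.436%). Ciita was too low to be tested. DESeq2 also called 0 of them in these contrasts. Before adjustment, only H2-DMb2 in thymus against bone marrow was under 0.05, where it stood 0.94 higher on the log2 scale (SE 0.38, adjusted p = 0.47). H2-Aa stood 0.64 higher in thymus than in bone marrow (SE 0.40, adjusted p = 0.66). H2-Ab1 stood at 0.50, H2-Eb1 at 0.49, Cd74 at -0.27, H2-DMa at 0.21, H2-DMb1 at 0.34, H2-Oa at -0.06 and H2-Ob at 0.36 there, with SEs of 0.30 to 1.24. For thymus against spleen the differences were 0.55 (H2-Aa), 0.09 (H2-Ab1), 0.26 (H2-Eb1), -0.19 (Cd74), -0.05 (H2-DMa), 0.59 (H2-DMb1), 0.70 (H2-DMb2), 0.13 (H2-Oa) and 0.19 (H2-Ob). For spleen against bone marrow they were 0.10 (H2-Aa), 0.41 (H2-Ab1), 0.23 (H2-Eb1), -0.08 (Cd74), 0.26 (H2-DMa), -0.25 (H2-DMb1), 0.23 (H2-DMb2), -0.19 (H2-Oa) and 0.17 (H2-Ob). The median log2 fold change over the 9 genes was 0.36 for thymus against bone marrow, 0.19 for thymus against spleen and 0.17 for spleen against bone marrow, against -0.02 over all genes in the first.

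The same fit compared male with female mice. All 9 genes had a lower fitted level in males, while 5819 of all 11239 genes tested had a higher one. The median log2 fold change was -0.53 over the 9 against 0.02 over all genes tested. None of the 9 passed adjustment, against 0.427% of all genes, and DESeq2 called 0 too. Before adjustment 4 of the 9 were under 0.05, as were 1129 of the 11239. H2-DMb2 stood 0.83 log2 lower (adjusted p = 0.22), H2-Oa 1.73 lower (adjusted p = 0.24), H2-Ob 0.67 lower (adjusted p = 0.31) and H2-Aa 0.69 lower (adjusted p = 0.49). The others were H2-Ab1 (-0.53), H2-Eb1 (-0.39), H2-DMa (-0.38), H2-DMb1 (-0.26) and Cd74 (-0.21). Of 10 transcription factors of the class II promoter, 1 was called lower in males, Rfxap (-1.20, adjusted p = 0.042), a subunit of the RFX complex. By CPM, H2-Ob was 74.9, 76.0 and 102 in the female and 46.9, 57.2 and 79.1 in the male tissues, so the male thymus value lay inside the female range. Without either thymus library H2-DMb2 passed (adjusted p = 0.0388 without female thymus, 0.0387 without male thymus). Should 1 pool of mice have given all tissues of a sex, sex and pool cannot be told apart.

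**Figure D2:**
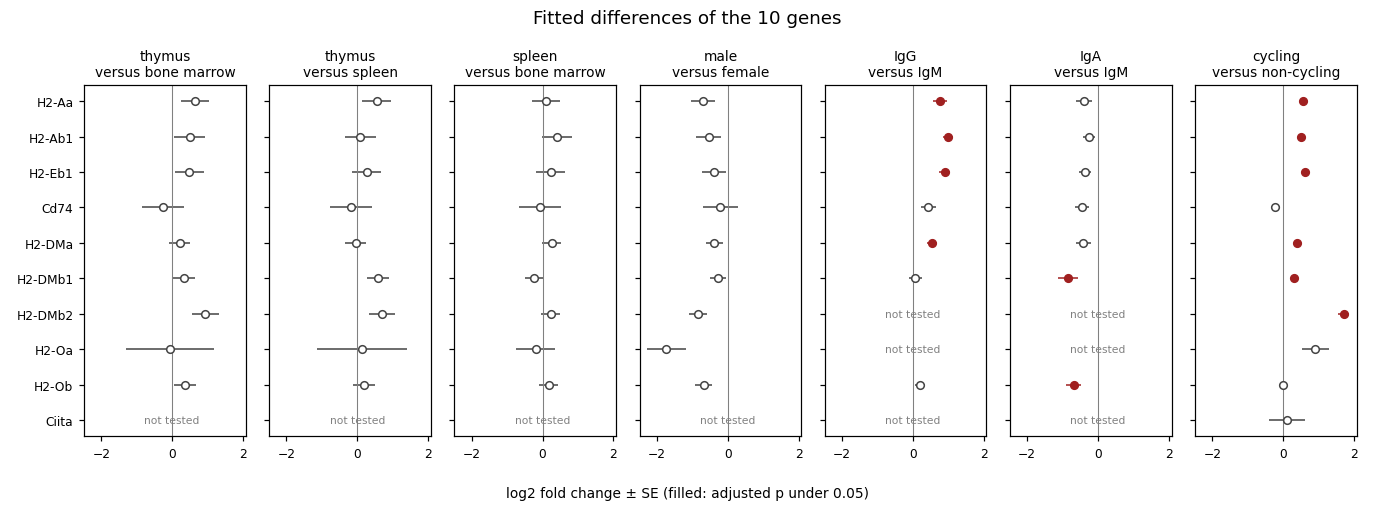
Log2 fold change ± SE of each of the 10 genes in 7 contrasts of edgeR's quasi-likelihood test; filled red points have an adjusted p under 0.05 and genes removed by the low count filter are marked as not tested. Filled points appear in the IgG, IgA and cycling contrasts and in none of the tissue or sex contrasts.

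Differences that passed the test were found within libraries, between heavy-chain classes. Each barcode was given the class of its leading heavy-chain constant gene, and non-cycling barcodes (without a UMI of Mki67 or Top2a) were summed by library and class, each library serving as its own control. IgG barcodes numbered 12 to 361 a library, IgA barcodes 11 to 147 and IgM barcodes 48 to 1558. H2-DMb2, H2-Oa and Ciita did not pass the filter on low counts.

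In IgG barcodes the chains were higher than in IgM barcodes in all 6 libraries. H2-Ab1 stood at 573 (bone marrow), 768 (spleen) and 1270.0 CPM (thymus) in female IgM barcodes, and at 559, 686 and 629 CPM in male ones. The IgG barcodes of the same libraries stood at 1269.9, 1247, 3136, 1329, 1203 and 1345 CPM. Female thymus was the only IgM sum that reached the IgG range. H2-Ab1 was 0.99 higher on the log2 scale (SE 0.15, adjusted p = 9.3e-07 in edgeR).

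H2-Eb1 followed the same pattern. Its IgM sums stood at 392, 501, 826, 404, 388 and 592 CPM, in the order of libraries just used. Its IgG sums stood at 932, 762, 1657, 892, 826 and 905 CPM, and IgM female thymus alone reached into that range. The difference was 0.90 on the log2 scale (SE 0.15, adjusted p = 1.4e-05). H2-Aa was 0.75 higher in IgG barcodes (SE 0.20, adjusted p = 0.0055), with folds of 1.38 to 4.40 over the libraries. The largest of these was female thymus, where 1 of 12 IgG barcodes carried most H2-Aa UMIs: the sum stood at 3551 CPM with it and at 1012 CPM without it. H2-Aa did not pass in DESeq2 (adjusted p = 0.29).

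H2-DMa was higher in IgG barcodes in 6 of 6 libraries as well, by 0.53 (SE 0.14, adjusted p = 0.0043), and its call was lost in 4 of 15 alternatives, among them without male spleen (0.44, adjusted p = 0.066) and without barcodes that hold UMIs of 2 or more marker genes of other lineages (0.39, adjusted p = 0.41). The call of H2-Aa was lost in the latter setting too (0.49, adjusted p = 0.36), which left H2-Ab1 and H2-Eb1. That setting kept 46.3% (female spleen) to 79.4% (female thymus) of the rule's barcodes. Its markers include Bst2, found in 49.6% of the rule's barcodes, and Epcam, found in 35.7%. Why calls were lost in it was not tested. Cd74 stood 0.44 higher on the log2 scale (SE 0.20, adjusted p = 0.16), H2-Ob 0.20 (SE 0.14) and H2-DMb1 0.07 (SE 0.18); none of these 3 passed. Thus 4 of 7 genes tested were called higher, against 6.03% of 5277 genes (13.0% called in either direction). H2-Eb2, a class II beta chain gene outside the 10, rose by 1.09 (SE 0.15, adjusted p = 2.5e-07).

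Within IgG, female spleen had enough barcodes to separate the subclasses. Non-cycling barcodes with Ighg1 leading (36 barcodes) stood at 715 CPM of H2-Ab1, with an exact 95% Poisson interval of 593 to 856 that covers counting error only. Those with Ighg2c (129 barcodes) stood at 1069 CPM (994 to 1148), with Ighg2b (155) at 1383 CPM (1303 to 1466) and with Ighg3 (41) at 1761 CPM (1583 to 1954). IgM barcodes of that library stood at 768 CPM (748 to 787), so the interval of Ighg1 held the IgM level and the other subclasses lay above it. H2-Aa and H2-Eb1 gave the same order of subclasses, whereas Cd74 was lowest with Ighg2c (12068 CPM) and at 16159 to 16723 CPM with the other 3. That order did not recur in the other libraries with at least 10 barcodes of each of 3 subclasses. In male spleen H2-Ab1 stood at 819 CPM with Ighg3 (16 barcodes), 1074 CPM with Ighg2b (40) and 1649 CPM with Ighg2c (37). In female bone marrow it stood at 647 CPM with Ighg2c (10 barcodes), 937 CPM with Ighg3 (14) and 1495 CPM with Ighg2b (40), and in male bone marrow Ighg2b was highest as well, at 2194 CPM (11). Over all 6 libraries Ighg2b barcodes ran from 322 CPM in male thymus (11 barcodes, 8 UMIs) to 3010 CPM in female thymus (10 barcodes).

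In IgA barcodes, set against IgG, 6 of 7 genes tested were lower, against 4.62% of all genes (8.21% in either direction). H2-Eb1 fell by 1.27 on the log2 scale (SE 0.18, adjusted p = 6.7e-07) and H2-Ab1 by 1.25 (SE 0.16, adjusted p = 1.0e-07), each lower in 6 of 6 libraries. H2-Aa fell by 1.15 (SE 0.24), H2-DMa by 0.95 (SE 0.22), Cd74 by 0.89 (SE 0.20) and H2-Ob by 0.89 (SE 0.23), with adjusted p from 0.000656 to 0.0067. H2-Aa and H2-DMa were lower in 5 of 6 libraries, the exceptions being male spleen for H2-Aa (fold 1.35) and male thymus for H2-DMa (fold 1.01). H2-DMb1 stood at -0.93 (SE 0.32, adjusted p = 0.056). The call of H2-DMa was lost without female bone marrow (-0.68, adjusted p = 0.072). Without barcodes with 2 or more other-lineage genes the calls of H2-Aa (-0.90, adjusted p = 0.16), H2-DMa (-1.26, adjusted p = 0.093) and H2-Ob (-0.56, adjusted p = 0.44) were lost, which left the other 3. These contrasts share the IgM and IgG sums, so they are not independent of one another.

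Against IgM, IgA barcodes were lower in H2-Ob, by 0.69 (SE 0.21, adjusted p = 0.0253), and in H2-DMb1, by 0.85 (SE 0.28, adjusted p = 0.0467). The others did not pass: Cd74 stood at -0.45, H2-DMa at -0.42, H2-Aa at -0.39, H2-Eb1 at -0.37 and H2-Ab1 at -0.26, with adjusted p from 0.18 to 0.37. These 2 of 7 genes compare with 4.28% of all genes called lower (7.79% in either direction). H2-Ob stood at 78.4 (bone marrow), 75.4 (spleen) and 145 CPM (thymus) in female IgM barcodes, at 46.5, 51.6 and 79.6 CPM in male ones, and at 32.8, 55.1, 34.3, 32.7, 22.0 and 63.2 CPM in IgA barcodes. It was lower in 6 of 6 libraries, although the ranges of the classes overlap. H2-DMb1, on 1 to 13 UMIs in each IgA sum, was lower in 5 of 6 and higher in male spleen (fold 1.86). The call of H2-DMb1 was lost in 9 of 13 alternatives and that of H2-Ob in 6 of 15. The call of H2-Ob was lost without female bone marrow (adjusted p = 0.18), female spleen (0.083) or male spleen (0.051), and that of H2-DMb1 without female thymus (0.054), male bone marrow (0.16) or male thymus (0.092), while DESeq2 called neither.

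In H2-Aa the difference between IgA and IgM barcodes was not the same in all tissues. In marrow, IgA barcodes stood at 81.9 (female) and 144 CPM (male) against 369 and 338 CPM of IgM barcodes, and in spleen at 505 and 648 CPM against 445 and 257 CPM. They were thus lower than IgM in both marrow libraries and higher in both spleen libraries; in thymus they were lower, at 445 and 278 against 807 and 554 CPM. An interaction of class with tissue, chosen after these values were seen, called H2-Aa alone of 7 genes (spleen minus bone marrow 2.42, SE 0.42, adjusted p = 1.4e-04), with 0.206% of 5824 genes called by tissue and 0.240% in that pair of tissues. H2-Eb1 stood at 1.46 (SE 0.39, adjusted p = 0.095). In thymus minus bone marrow none was called (0.0687% of all genes), and none was under 0.05 before adjustment. The same fit called none of the 7 for IgG against IgM, either in spleen minus bone marrow (0.0515% of all genes) or in thymus minus bone marrow (0.0859%); before adjustment 0 were under 0.05 there, and DESeq2 called 0. The marrow IgA sums held 25 and 22 UMIs of H2-Aa. The call was lost without female bone marrow, without male spleen, in DESeq2, at a light-chain share of 80% and without barcodes with other-lineage genes, and the count of genes called was 0 in each.

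**Figure D3:**
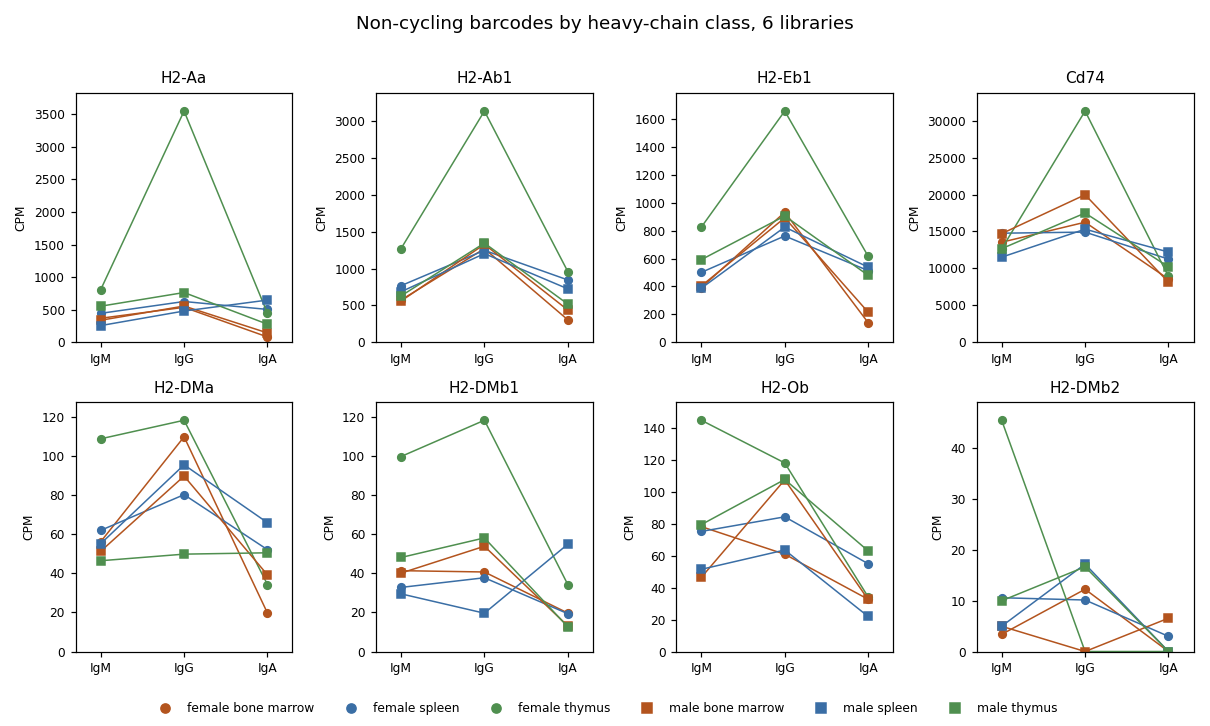
CPM of 8 genes in non-cycling IgM, IgG and IgA barcodes, with 1 line per library (colour for tissue, circles female, squares male) and axes that start at 0. H2-Ab1 and H2-Eb1 peak in IgG in all 6 libraries, and female thymus stands at 3551 CPM for H2-Aa in IgG, a sum of 12 barcodes.

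Other genes moved between the classes too. The summed ASC markers, mostly Jchain, ranged over 49029.5 to 92439 CPM in IgG, 60525 to 129796 in IgM and 100765 to 148803 in IgA barcodes. In IgG against IgM, 2 of these 10 were called lower, Tnfrsf17 (-1.84) and Jchain (-0.73), and 2 higher, Fkbp11 (0.73) and Mzb1 (0.58), where 13.0% of all genes were called. The summed B cell markers ranged over 2467 to 3609 CPM in IgG, 2486 to 3432 in IgM and 2275 to 2878 in IgA barcodes. Fcer2a, found in only 0.367% of all the rule's barcodes, was at 0 in IgG and IgA. Of 9 B cell markers tested, IgG barcodes were lower than IgM barcodes in 1, Blk (-1.75), and higher in 1, Cd79b (0.47). IgA barcodes were lower than IgM barcodes in 5, among them Ms4a1 (-1.44) and Blk (-1.40), and higher in 1, Ebf1 (1.12), against 4.28% of all genes called lower and 7.79% in either direction. Against IgG, IgA barcodes were lower in 5 of the 9, namely Bank1 (-2.02), Ms4a1 (-1.23), Fcrla (-0.79), Cd37 (-0.74) and Cd79b (-0.72), and higher in none, against 4.62% of all genes called lower. Macrophage and monocyte markers summed to at most 88.8 CPM in IgG, 117 CPM in IgM and 58.1 CPM in IgA barcodes. Csf1r, Adgre1 and Mertk were at 0 in IgG and IgA. They were found in only 0.149%, 0.138% and 0.0459% of all the rule's barcodes, too few for these zeros to be read. Cd68, found in 8.86%, and Mrc1, found in 5.17%, were detected in both classes. Dendritic cell markers summed to 263 to 673 CPM in IgG, 174 to 320 in IgM and 319 to 891 in IgA barcodes, with Clec9a and Xcr1 at 0 in all classes. Bst2, which plasma cells also express, was called higher in IgG (0.76) and IgA (0.78) than in IgM barcodes, and Ccr9, a gut-homing receptor, in IgA barcodes against IgM (4.57) and IgG (4.32). Thymic epithelial markers summed to 0 to 371 CPM in IgG, 124 to 244 in IgM and 233 to 341 in IgA barcodes. Foxn1, Krt5, Krt14 and Psmb11 were at 0 in all classes. Epcam was called higher in IgG (0.60) and IgA (0.61) than in IgM barcodes, and Ly75 in IgA against IgM (0.81). Whether these sums had a part in the class II differences was not tested.

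Among genes that act on class II, 5 of 10 listed transcription factors of the promoter (such as the Rfx, Nfy and Creb1 genes) were tested between classes. None was called in IgG against IgM, IgA against IgM or IgA against IgG; with 7.79% to 13.0% of all genes called, 0 of 5 is near the background. Before adjustment 1 was under 0.05 in each of these contrasts. Of 9 inducers and repressors tested, 1 rose, Spi1 (0.49, adjusted p = 0.029), and 1 fell, Irf8 (-0.97, adjusted p = 1.1e-05), in IgG against IgM barcodes. In IgA against IgM barcodes Irf8 fell (-1.49, adjusted p = 3.6e-06) and Atxn1, Ebf1 and Irf4 rose. Of 9 processing and turnover genes tested, 1 rose and 2 fell in IgG against IgM: Ifi30, the lysosomal thiol reductase that unfolds antigen, rose by 1.0 on the log2 scale (SE 0.14), and Cd83 (-1.76), which protects surface class II from turnover, and the protease gene Ctsl (-0.77) fell. In IgA against IgM, 4 of these 9 fell, Ctss (-0.86), Ctsz (-0.53), Cd83 (-1.23) and Lgmn (-0.51), against 4.28% of all genes. In IgA against IgG, 5 of these 9 fell, with Ctsz (-0.80), Lgmn (-0.76), Ifi30 (-0.80) and Ctss (-0.66), all lysosomal enzymes, among those named, and Ctsl rose (1.3).

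Cycling barcodes, those with at least 1 UMI of Mki67 or Top2a, carried more chain RNA. They numbered 376 (bone marrow), 1498 (spleen) and 36 (thymus) in female mice and 562, 747 and 68 in male mice. H2-Eb1 stood at 408, 549 and 953 CPM in non-cycling female barcodes and 413, 434 and 628 CPM in non-cycling male barcodes. In cycling barcodes of the same libraries it stood at 775, 774 and 1203 CPM and at 679, 705 and 1107 CPM. Each library was higher in its cycling barcodes, although the 2 ranges overlap across libraries. The difference was 0.63 on the log2 scale (SE 0.08, adjusted p = 7.5e-07).

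H2-Ab1 rose by 0.51 (SE 0.08, adjusted p = 2.9e-05), again in 6 of 6 libraries, with a median fold of 1.52. H2-Aa rose by 0.57 (SE 0.10, adjusted p = 1.4e-04) in 5 of 6; in female thymus it stood at 941 CPM in cycling and 1282 CPM in non-cycling barcodes, or 775 CPM without the leading barcode. H2-DMa rose by 0.39 (SE 0.08, adjusted p = 3.0e-04) in 6 of 6 libraries and H2-DMb1 by 0.31 (SE 0.09, adjusted p = 0.0114) in 5 of 6. The call of H2-DMb1 did not hold in 6 of 16 alternatives, among them DESeq2 (adjusted p = 0.087) and without female spleen (0.29, adjusted p = 0.099).

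H2-DMb2, the copy of H2-DMb1, rose as well. Its cycling barcodes held 62 (bone marrow), 293 (spleen) and 4 UMIs (thymus) in female mice and 73, 54 and 18 in male mice, and its non-cycling barcodes 13, 103, 5, 28, 25 and 8. As levels these were 28.7, 26.8, 43.8, 20.8, 14.2 and 46.6 CPM against 3.69, 9.96, 28.9, 4.84, 6.06 and 9.97 CPM. Every library was higher in cycling barcodes, by folds of 1.52 to 7.79, and female thymus, on 9 UMIs, had the smallest. The difference was 1.70 on the log2 scale (SE 0.16, adjusted p = 2.1e-09), and its size depended on the barcodes kept (1.31 without those with other-lineage genes, which was not the smallest over the alternatives). As H2-DMb2 was below the level of empty droplets in all 6 libraries, how much of this difference came from free RNA was not tested.

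The remaining 4 genes did not pass. H2-Ob stood at 0.00 (SE 0.08), Ciita at 0.10 (SE 0.51) on 40 UMIs, and H2-Oa at 0.91 (SE 0.37, adjusted p = 0.078) on 77. Cd74 went the other way from the chains. It stood at 13300.3, 14558, 15662, 14682, 11918 and 13157 CPM in non-cycling barcodes, and at 12009, 12639.5, 12221, 13838, 11654 and 12681 CPM in cycling barcodes, in the order of libraries used above. It was lower in 6 of 6 libraries, with folds of 0.780 to 0.978, and stood at -0.23 on the log2 scale (SE 0.12, adjusted p = 0.20). So 6 of 10 genes were called higher and none lower, against 14.1% of 10768 genes called higher (23.9% in either direction), with a median log2 fold change of 0.45 over the 10 and -0.02 over all genes.

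**Figure D4:**
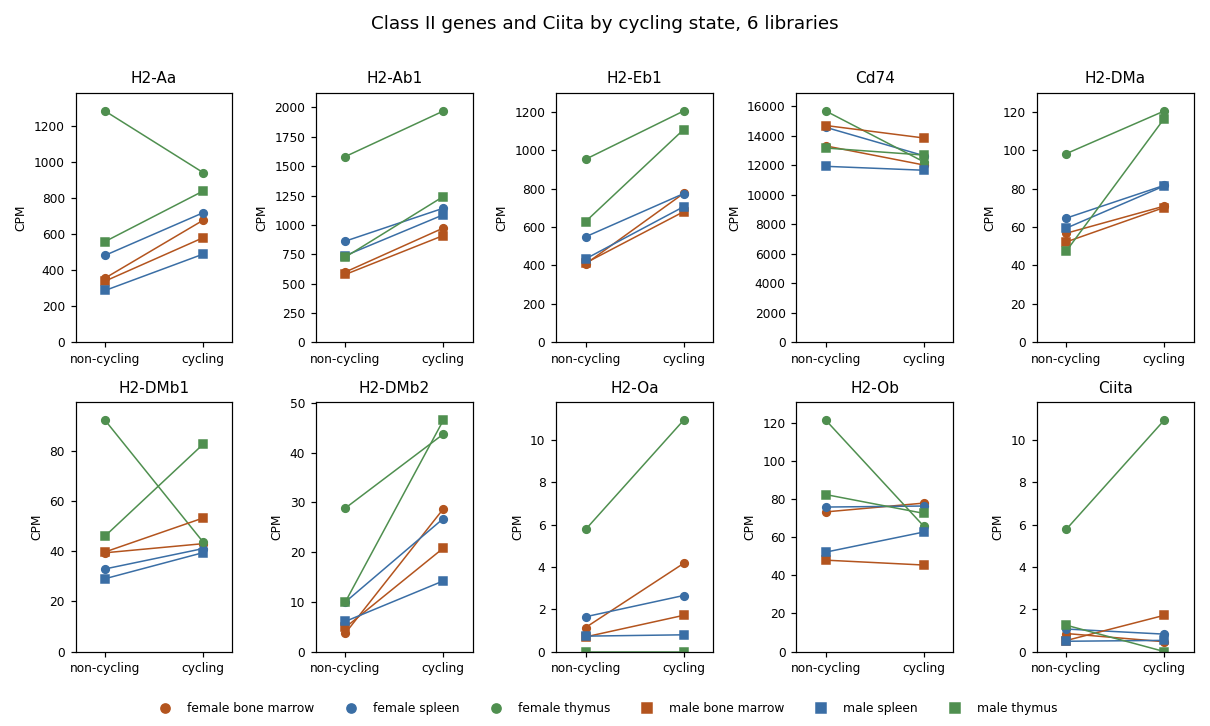
CPM of each of the 10 genes in non-cycling and cycling barcodes, with 1 line per library (colour for tissue, circles female, squares male) and axes that start at 0. H2-Ab1, H2-Eb1, H2-DMa and H2-DMb2 rise in all 6 libraries, H2-Aa falls in female thymus alone, and Cd74 falls in all 6.

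Cycling barcodes differed in other ways. They were deeper, with median UMIs of 2074 to 5629 against 1991 to 3687, and the Mki67 and Top2a UMIs that define them are found more easily in deep barcodes. With every barcode thinned to 1000 UMIs and the states set again, the chains kept their calls at smaller sizes: H2-Eb1 0.23 (adjusted p = 0.040), H2-Ab1 0.25 (0.017) and H2-Aa 0.27 (0.018). In that setting Cd74 was called lower (-0.33, adjusted p = 0.0019), H2-DMa stood at 0.07 (adjusted p = 0.88) and H2-DMb1 at -0.12 (adjusted p = 0.84), the opposite direction. The summed ASC markers ranged over 36509 to 88077 CPM in cycling and 71100 to 127274 CPM in non-cycling barcodes, with 4 of 10 called lower, among them Jchain (-0.75) and Sdc1 (-0.24), against 9.77% of all genes. The summed B cell markers ranged over 1751 to 2998 CPM in cycling and 2549 to 3418 CPM in non-cycling barcodes. The part of these differences in the result was not tested.

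Neutrophil markers had a higher sum in cycling barcodes of bone marrow, with most of it in 1 barcode per library. Their sum was 97.6 CPM in non-cycling and 1287 CPM in cycling barcodes of female marrow, and 94.9 and 3455 CPM in male marrow. In cycling barcodes 1 barcode held 2594 of the 2779 UMIs in the female and 1 held 7189 of 12119 in the male library. A neutrophil marker UMI was found in 130 of 376 cycling and 278 of 862 non-cycling barcodes of female marrow. In male marrow it was found in 226 of 562 and 391 of 1103. Without barcodes that hold UMIs of 2 or more macrophage, dendritic, T cell, thymic epithelial or neutrophil marker genes, the chains stood at 0.43 (H2-Aa), 0.45 (H2-Ab1) and 0.49 (H2-Eb1) and H2-DMb2 at 1.31, all 4 still called, while H2-DMa (0.22, adjusted p = 0.20) and H2-DMb1 (0.22, adjusted p = 0.37) were not. In spleen and thymus the same 8 markers gave 0 to 2 UMIs per sum. H2-Eb1 was 1.41 and 1.63 times higher in cycling barcodes of female and male spleen. The part of neutrophil RNA in the marrow values was not tested. Macrophage and monocyte markers summed to 28.4 to 112 CPM in cycling and 23.1 to 104 CPM in non-cycling barcodes, and dendritic cell markers to 120.3 to 460.4 and 190 to 396 CPM, with Clec9a and Xcr1 at 0 in both.

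In the same contrast 14.1% of all genes were called higher and 23.9% in either direction. Of the 10 promoter-binding factors tested here, 1 was called higher, a share near that background, Nfyc, a subunit of NF-Y (0.28, adjusted p = 0.019). Of 14 inducers and repressors tested, 3 fell: Irf1 (-0.25), Jak1 (-0.24) and Stat6 (-0.35). Of 14 processing and turnover genes, 3 rose and 5 fell. Ifi30 rose by 0.81 (SE 0.07) and the costimulatory ligand gene Cd80 by 1.05 (SE 0.22), while Ctss, the protease that trims Cd74, fell by 0.55 (SE 0.08), Cd83 by 0.54 (SE 0.10) and Ctsl by 0.58 (SE 0.11). H2-Eb2 rose by 0.38 (SE 0.07, adjusted p = 2.9e-04).

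Whether the difference between cycling states depends on tissue was tested by an interaction over the 12 sums. No gene of the 10 was called by tissue in edgeR, against 0.0929% of all genes, and DESeq2 called 0 as well. Before adjustment 2 genes were under 0.05, H2-Aa and H2-DMb2, and after it neither was near the threshold. H2-Aa passed without male thymus (adjusted p = 0.0227). For H2-Eb1 the cycling difference in spleen minus that in bone marrow was -0.18 (SE 0.20) and for H2-DMb2 it was -0.99 (SE 0.35); 0.111% of all genes were called in that pair of tissues and 0% in thymus minus bone marrow.

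Barcodes also differed among themselves. At 1000 UMIs, 3157 of the 8715 barcodes held no UMI of the 3 chains, 3635 held 1 to 2, 1760 held 3 to 9 and 163 held 10 or more. These bins use the chains, so what follows is a description with no test. The share of IgG barcodes was 6.53%, 12.7%, 23.8% and 26.4% from the lowest to the highest bin. That of cycling barcodes was 13.1%, 15.3%, 22.7% and 22.7%. Here the cycling state was set again after thinning, so fewer barcodes counted as cycling than above. The barcodes with 10 or more chain UMIs were 1.35% to 2.02% of bone marrow and spleen libraries, 3.13% of male thymus and 9.35% of female thymus. Their leading light-chain V gene held a median of 81.9% of light-chain V UMIs, against 74.7% in barcodes with none. That gap differed by library, from 76.1% against 75.1% in female spleen to 92.4% against 78.7% in female bone marrow. Barcodes of the highest bin were also deeper before thinning in every library, with a median over all of 5162 UMIs against 3320.

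Over these bins most other class II genes went up with the chains. Cd74 had a median over libraries of 9651 CPM in the lowest bin and of 32578 CPM in the highest, and was higher in the highest bin in 6 of 6 libraries, as were H2-DMa, H2-DMb1 and H2-DMb2. Ciita had 1, 3, 0 and 0 UMIs in the 4 bins. At 0 counts in the 163 barcodes of the highest bin, a low level of Ciita was not detectable. Jchain, which links IgM and IgA into polymers, went from a median of 62330.5 to 23814 CPM, and Tnfrsf17, the survival receptor BCMA, from 260.1 to 78.5 CPM, each lower in 6 of 6 libraries. Prdm1 had medians of 852 and 873 CPM and was higher in the highest bin in 5 of 6 libraries; Xbp1, at 3396 and 3494 CPM, was higher in 4 of 6. Cd79b, a chain of the B cell receptor, stood at 556 and 1129 CPM, higher in 6 of 6, and Ms4a1 at 78.8 and 164 CPM, higher in 4 of 6. Pax5, the B cell identity factor, had 4, 1, 8 and 0 UMIs in the 4 bins, too few to read a level in the highest.

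**Figure D5:**
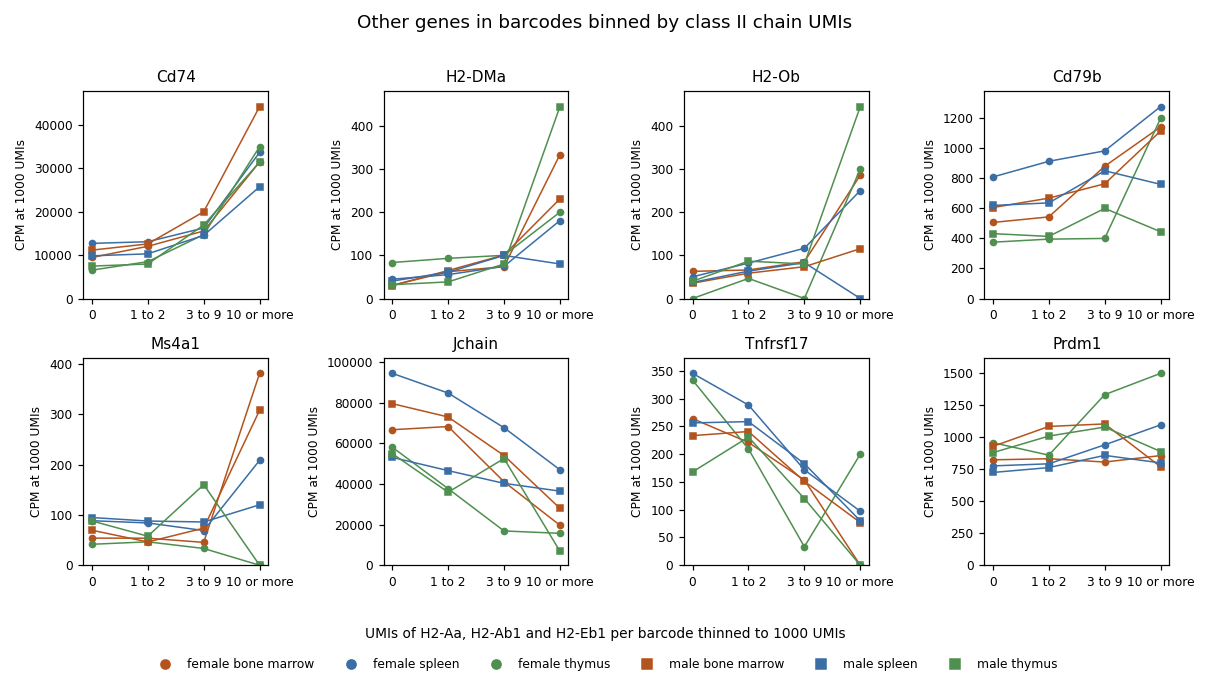
CPM at 1000 UMIs of 8 genes (vertical axes start at 0) in barcodes with 0, 1 to 2, 3 to 9 and 10 or more UMIs of H2-Aa, H2-Ab1 and H2-Eb1, with 1 line per library. Cd74 rises and Jchain falls from the first to the last bin in all 6 libraries, and Prdm1 is higher in the last bin in 5 of 6; the last bin holds 163 barcodes in all.

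Across 19 sums of at least 50 barcodes (library, class and state), the 3 chains varied together. No sum of female thymus was large enough to be included. Male thymus gave IgM sums only, and IgA sums came from female marrow and spleen only. On the log2(CPM + 1) scale Pearson's r was 0.96 for H2-Ab1 with H2-Eb1, 0.94 for H2-Aa with H2-Eb1 and 0.87 for H2-Aa with H2-Ab1. H2-DMa was at 0.96 with H2-Eb1 and H2-DMb2 at 0.92, H2-Ob at 0.70 and H2-DMb1 at 0.60. Cd74 was at 0.57 with H2-Eb1, and Ciita at 0.31. Sums of 1 library share cells' source, depth and free RNA, so these are descriptions.

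The same 19 sums were used to find the genes most like the 9 class II genes without Ciita, summed, among 5757 genes with a mean of at least 20 CPM. That sum is mostly Cd74 (r = 0.94 with it). The 8 nearest were Scimp (0.89), a membrane adaptor, Pex7 (0.88), Ebag9 (0.87), H2-M3 (0.87), a class Ib MHC chain, Cd164 (0.87), a sialomucin, Alpl (0.86), alkaline phosphatase, Pld4 (0.85) and Tpst1 (0.84), a tyrosine sulfotransferase. Tnfrsf17 was among the least like, at -0.73. With the 3 chains summed in place of the 9 genes, a choice made after seeing the data, Gmnn (0.92), an inhibitor of DNA replication licensing, and the endocytic adaptor gene Ap2m1 (0.92) came first, and Jchain (-0.79) and Nfkbia (-0.85) were among the least like.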

How the data were processed

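Antibody-secreting cells of 6 sex and tissue groups were profiled by droplet RNA sequencing, with 1 library each. The authors deposited raw UMI counts, not normalized. The headers name Cell Ranger 6.0.2 for filtered matrices and Cell Ranger 4 for unfiltered ones, per the file headers. The build is GRCm38 (mm10), per the submitters' processing notes. Values of barcodes in both were equal (0 differed). B cell receptor libraries were not used here. The 395 genes starting with Igh, Igk or Igl were left out of totals and tests.

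Counts were summed over barcodes per library, class or state (at least 10 barcodes) and tested with edgeR 4.0.16 in R 4.3.3: filterByExpr, TMM, quasi-likelihood F-test, Benjamini-Hochberg adjustment over all genes tested, threshold 0.05. Tissue and sex were additive terms over 6 libraries (2 residual degrees of freedom); class and cycling state were fitted with library as a block. Libraries were treated as independent. In the tissue and sex fit, p-values measure the spread between these libraries. In the fits with library as a block, they measure how a difference within libraries varies from library to library. Thinning to 1000 UMIs used a fixed seed. Intervals are exact at 95%. The test code was checked on simulated data. Python 3.11.15 with scipy 1.17.1 gave the descriptions. Alternatives were DESeq2 1.42.0, its size factors in edgeR, no count filter, 2000 UMIs, a leading light-chain V share of 80%, no barcodes with UMIs of 2 or more other-lineage genes, none with a B cell gene, under 10% mitochondrial UMIs, thinning, and leaving out each library; for classes both cycling states, for tissue and sex non-cycling barcodes, and for tissue and cycling IgM barcodes. The members, lists and tests were chosen with earlier results of these data known. All 10 genes are named in every contrast except the interactions with tissue, where only some are. Of other lists at most 5 called genes per contrast are named, by smallest p, along with the 8 genes most like the members. The genes set against the bins and empty droplets, the genes like the summed chains and the IgG subclasses were chosen after values were seen. A smaller H2-DMb2 difference between cycling states under 1 alternative is not reported here.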

Additional observations from a re-analysis of the deposited data

Results flagged for a closer look

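One result met the criteria for a closer look. For H2-Aa, the difference between non-cycling IgA and IgM barcodes was larger in spleen than in bone marrow by 2.42 on the log2 scale, a difference between tissues that passed edgeR's test of the interaction (adjusted p = 1.4e-04 over 5824 genes). IgA barcodes were lower than IgM barcodes in 2 of 2 marrow libraries and higher in 2 of 2 spleen libraries. The interaction was chosen after the values were seen. The marrow IgA sums held 25 and 22 UMIs of H2-Aa. The count of genes called was 0 without female bone marrow, without male spleen, in DESeq2, at a light-chain share of 80% and without barcodes with other-lineage genes.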

How the results depend on the processing

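The tissue contrasts called 0 of 9 genes under all 17 alternatives each, and H2-Ab1 and H2-Eb1 kept direction and call under all 16 alternatives in IgG against IgM, IgA against IgG and cycling against non-cycling. Without barcodes with UMIs of 2 or more other-lineage genes, genes called were 1 for male against female (0 in the report), 0 for IgA against IgM (2), 2 for IgG against IgM (4), 3 for IgA against IgG (6) and 0 for IgA against IgM by tissue (1). Without barcodes with a B cell gene they were 2 for male against female, 0 for IgA against IgM and 2 for IgA against IgM by tissue. For IgA against IgM, DESeq2 called 0, no count filter 1, under 10% mitochondrial UMIs 1, and both cycling states together 5. For IgA against IgM by tissue, DESeq2 called 0, 2000 UMIs 2 and a light-chain share of 80% 0. Leaving out each library in turn gave 0 to 1 for male against female, 0 to 2 for IgA against IgM, 0 to 1 for the cycling difference by tissue and 0 to 2 for IgA against IgM by tissue. H2-DMb1 in cycling barcodes stood at -0.12 with thinning, the opposite direction. The cause of these changes was not tested. Without thinning, the share of barcodes with a chain UMI was 81.2%, 94.6% and 84.1% in female bone marrow, spleen and thymus and 86.0%, 90.1% and 77.1% in male. Ciita, H2-Oa and H2-DMb2 were below the count filter between classes; with both cycling states together H2-DMb2 was tested and called lower in IgA than in IgM (-1.57) and IgG (-1.76), and with H2-DMb1 (-1.33) called too, 8 genes were called for IgA against IgG. Class and cycling state were compared within libraries, with library as a block; a pairing by replicate number was not possible because each sex and tissue group has 1 library.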
